A study of Homo sapiens with 30 samples.

Results

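The genes of cell proliferation were followed in 5 human breast cancer cell lines treated with bone morphogenetic protein 7 (BMP7). The list held 59 gene symbols, of which 58 were on the array as 69 probes (DLGAP5 was the symbol not found), and 68 of these probes, covering all 58 genes, were well above background in the vehicle channel on at least 15 of the 30 arrays. Over the whole array, 26256 of 41000 probes passed the same rule. Each gene was read from its brightest passing probe. By their roles, 21 genes act in DNA replication and the G1/S transition, 4 in nucleotide synthesis, 11 drive the G2/M transition, 19 build the spindle, the kinetochore or mitotic chromosomes, and 3 belong to anaphase proteolysis.

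The lines were HCC1954, MDA-MB-231, MDA-MB-361, T-47D and ZR-75-30. Each was exposed to recombinant human BMP7 or to vehicle for 30 min, 1, 3, 6, 12 or 24 h, and each two-colour array compared a BMP7 sample (Cy5) with the vehicle sample of its own line and time point (Cy3). The cells of 3 cultures were pooled into each sample, no array was repeated, and the dyes were never swapped, so any fixed dye preference of a probe sits inside its ratio. The medium of MDA-MB-231 and of T-47D was low in serum, that of MDA-MB-231 the lower, and each line is a single established culture. In RNA from whole cultures, fewer dividing cells and less transcript per dividing cell cannot be told apart.

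Cells copy their DNA in S phase and part the copies in mitosis, and most of the genes that carry out these steps are themselves switched on and off in each cycle. The E2F family of factors turns on the replication genes around the G1/S transition, while the mitotic genes peak later, in G2 and M, and many of them carry a CHR element (cell cycle genes homology region) and CCAAT boxes in their promoters. In growing breast cancer cells the level of such genes is widely used as a measure of the share of cycling cells. BMP7, a ligand of the transforming growth factor beta superfamily, acts through SMAD proteins and raises the ID genes.

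Promoter windows of 250 bases before to 50 bases after the gene start were available from RefSeq (assembly GRCh38.p14) for 49 of the 58 genes. 3 motifs were searched on both strands: the CHR as TTTGAA, the CCAAT box as CCAAT, and E2F as TTTGGCGC, TTTCCCGC or GGCGGGAA, the last pair of which can overlap and were then counted as 1 promoter. An E2F motif stood in 13 of 18 windows of the replication and G1/S genes, against 4.61% of all 27305 promoters. The CHR stood in none of these 18 windows, in 11 of 16 windows of the spindle, kinetochore and chromosome genes and in 4 of 9 of the G2/M drivers, against 15.4% of all promoters. CCAAT was found in 35 of 49 windows of the whole list, against 35.7% of all promoters. These matches describe letters in the windows and show neither binding nor its absence. Parts of 3 windows of each kind are shown, because the replication and the mitotic genes had opposite signs between some time points. Capitals mark the motif matches on either strand (ATTGG is CCAAT read on the other strand), and each stretch runs 5′ to 3′ along the gene, with 130 bases before its start and 20 from it. The first 3 belong to CDC6, which loads the replicative helicase, E2F1, the G1/S transcription factor, and PCNA, the sliding clamp of the DNA polymerases, at chr17:40287749-40287898 (+), chr20:33686366-33686515 (-) and chr20:5126603-5126752 (-).
CDC6: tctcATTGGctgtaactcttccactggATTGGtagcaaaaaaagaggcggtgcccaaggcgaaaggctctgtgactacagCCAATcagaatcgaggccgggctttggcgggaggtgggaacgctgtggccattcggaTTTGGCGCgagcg
E2F1: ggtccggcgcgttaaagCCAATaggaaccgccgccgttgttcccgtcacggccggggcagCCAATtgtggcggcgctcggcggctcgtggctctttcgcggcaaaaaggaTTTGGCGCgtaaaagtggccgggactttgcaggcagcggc
PCNA: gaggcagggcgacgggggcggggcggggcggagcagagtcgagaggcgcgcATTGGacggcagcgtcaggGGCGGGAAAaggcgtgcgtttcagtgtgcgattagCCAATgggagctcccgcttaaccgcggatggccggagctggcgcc
The other 3 belong to MKI67, which encodes the Ki-67 protein that coats mitotic chromosomes, CDC20, the activator of the anaphase-promoting complex, and PLK1, a mitotic kinase, at chr10:128126404-128126553 (-), chr1:43358851-43359000 (+) and chr16:23678759-23678908 (+).
MKI67: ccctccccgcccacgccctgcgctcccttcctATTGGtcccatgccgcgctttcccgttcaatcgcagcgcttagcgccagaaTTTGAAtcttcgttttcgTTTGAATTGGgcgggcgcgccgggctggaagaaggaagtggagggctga
CDC20: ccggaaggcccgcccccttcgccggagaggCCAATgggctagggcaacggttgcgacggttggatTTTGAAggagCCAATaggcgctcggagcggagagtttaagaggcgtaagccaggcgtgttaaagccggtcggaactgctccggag
PLK1: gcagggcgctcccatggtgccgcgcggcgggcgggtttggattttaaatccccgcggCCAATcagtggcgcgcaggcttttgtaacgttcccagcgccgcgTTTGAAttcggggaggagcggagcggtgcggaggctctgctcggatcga

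In the vehicle channel, 56.2% to 70.5% of an array's spots passed the background test. The array of MDA-MB-231 at 6 h stood apart, with 2741 spots marked as outliers against 106 to 525 on the others, and values that rest on it are given with that in view. The arrays lay on 13 slides, and in every line the 12 and 24 h arrays were on another slide than those of 30 min and 1 h, so slide and time cannot be told apart in a late against early difference within a line. The epithelial markers KRT8, KRT18, KRT19 and CDH1 and the breast markers ERBB2 and GATA3 were well above background on all 30 arrays. Of the other markers listed for these lines, ESR1 passed on 24 arrays (0 of MDA-MB-231), PGR on 11 and VIM on 29. The VIM signal was highest in MDA-MB-231 and HCC1954. The leukocyte marker PTPRC passed on none, while the endothelial marker PECAM1 passed on 9, COL1A1 on 20, CD3E on 29 and CD14 on 30. The part of these last transcripts in the results was not tested. BMP7 signaling could be read on the same arrays, where ID2 had a mean log2 ratio of BMP7 over vehicle of 0.91 (limma, adjusted p = 0.0124) and ID1 of 0.81 (limma, adjusted p = 0.0265), while ID3 (0.63), SMAD6 (0.34) and SMAD7 (0.22) did not pass (limma, adjusted p = 0.0713, 0.210 and 0.102).

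The question here was whether BMP7 treatment changed the proliferation genes, and few of their values were far from 0 at any time point. Of 1738 single values of the 58 genes over 30 arrays, 0 were 2-fold or more above vehicle and 3 were 2-fold or more below it, while changes of that size made up 1.21% of the values of all 26256 probes and 0.604% of those of 4774 probes of like signal (a mean vehicle level within the interquartile range of the list). TOP2A, the topoisomerase that untangles chromosomes, had a log2 ratio of -1.14 in ZR-75-30 at 6 h. RRM2, the regulated subunit of ribonucleotide reductase, was at -1.13 on the same array, and TK1, the thymidine kinase of nucleotide salvage, at -1.09 in MDA-MB-361 at 24 h. The highest value of any member was 0.77, for CCNA2 (cyclin A2) in MDA-MB-231 at 12 h. The SD of a gene over the 30 arrays had a median of 0.209 for the list, 0.207 for the probes of like signal and 0.251 for all detected probes.

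The median log2 ratio of the list was below 0 on 24 of 30 arrays, and that of the probes of like signal on 14 of 30. It lay between -0.08 and 0.01 on the 6 arrays of HCC1954 and between -0.08 and -0.01 on those of MDA-MB-231. In T-47D it was at its highest of 0.08 at 1 h and at -0.12 at 24 h, and in ZR-75-30 it ranged from -0.22 at 6 h to -0.01 at 30 min. MDA-MB-361 held the lowest value, -0.31 at 24 h, after -0.13 at 12 h and values between -0.08 and 0.01 before. Averaged over its 6 time points, the median of the list was lowest in MDA-MB-361, at -0.10 ± 0.11, then -0.08 ± 0.07 in ZR-75-30, -0.04 ± 0.03 in MDA-MB-231, -0.03 ± 0.03 in HCC1954 and -0.01 ± 0.07 in T-47D (SD, n = 6 arrays each), and these spreads overlap.

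**Figure D1:**
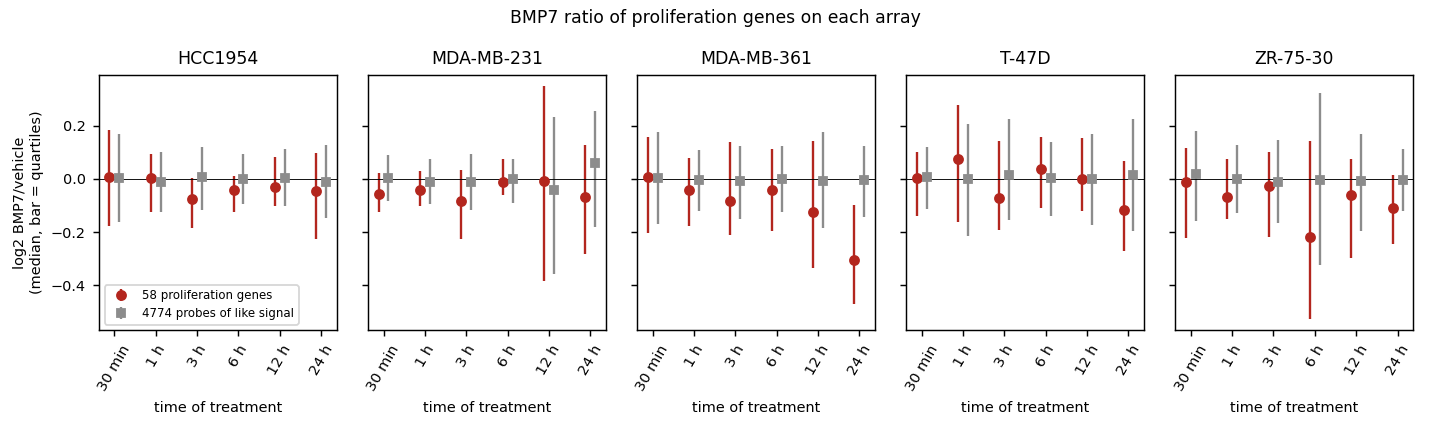
Median log2 ratio of BMP7 over vehicle of the 58 proliferation genes on each of the 30 arrays, by cell line and time point, beside the median of 4774 probes of like signal; bars span the quartiles. Most medians of the list sit near 0, and the lowest, -0.31, is that of MDA-MB-361 at 24 h, where the probes of like signal sit at -0.00.

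On the MDA-MB-361 array at 24 h, 50 of 58 genes (86.2%) were below 0, against 50.5% of the probes of like signal. All 21 replication and G1/S genes were below 0, with a median of -0.39, and so were the 4 genes of nucleotide synthesis, with a median of -0.67. The lowest were TK1 (-1.09), CDC45L (-0.88), which forms the active helicase with the MCM proteins, CDT1 (-0.81), which licenses replication origins, and the reductase subunits RRM1 (-0.69) and RRM2 (-0.65). Ratios of the MCM helicase subunits MCM2 to MCM7 were smaller, between -0.48 for MCM7 and -0.21 for MCM4. The G2/M drivers had a median of -0.03, with 9 of 11 below 0, and the spindle, kinetochore and chromosome genes of -0.21, with 15 of 19 below 0. The highest were KIF4A (0.22), TPX2 (0.14) and PTTG1 (0.10). CDC20 (0.09), AURKA (0.10), MKI67 (0.07) and FOXM1 (0.01), the transcription factor of G2/M genes, stood at or just above 0. Other cell cycle genes outside the list, of which 61 were detected, had a median of -0.34 on this array, with 56 of 61 below 0. At 12 h, on the same slide, the 58 genes correlated with their 24 h ratios at r = 0.82, which is across genes, and the probes of like signal did so at r = 0.81. With normexp background correction and median scaling in place of the lowess dye normalization, the median of the list at 24 h was -0.19 and that at 12 h -0.00.

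**Figure D2:**
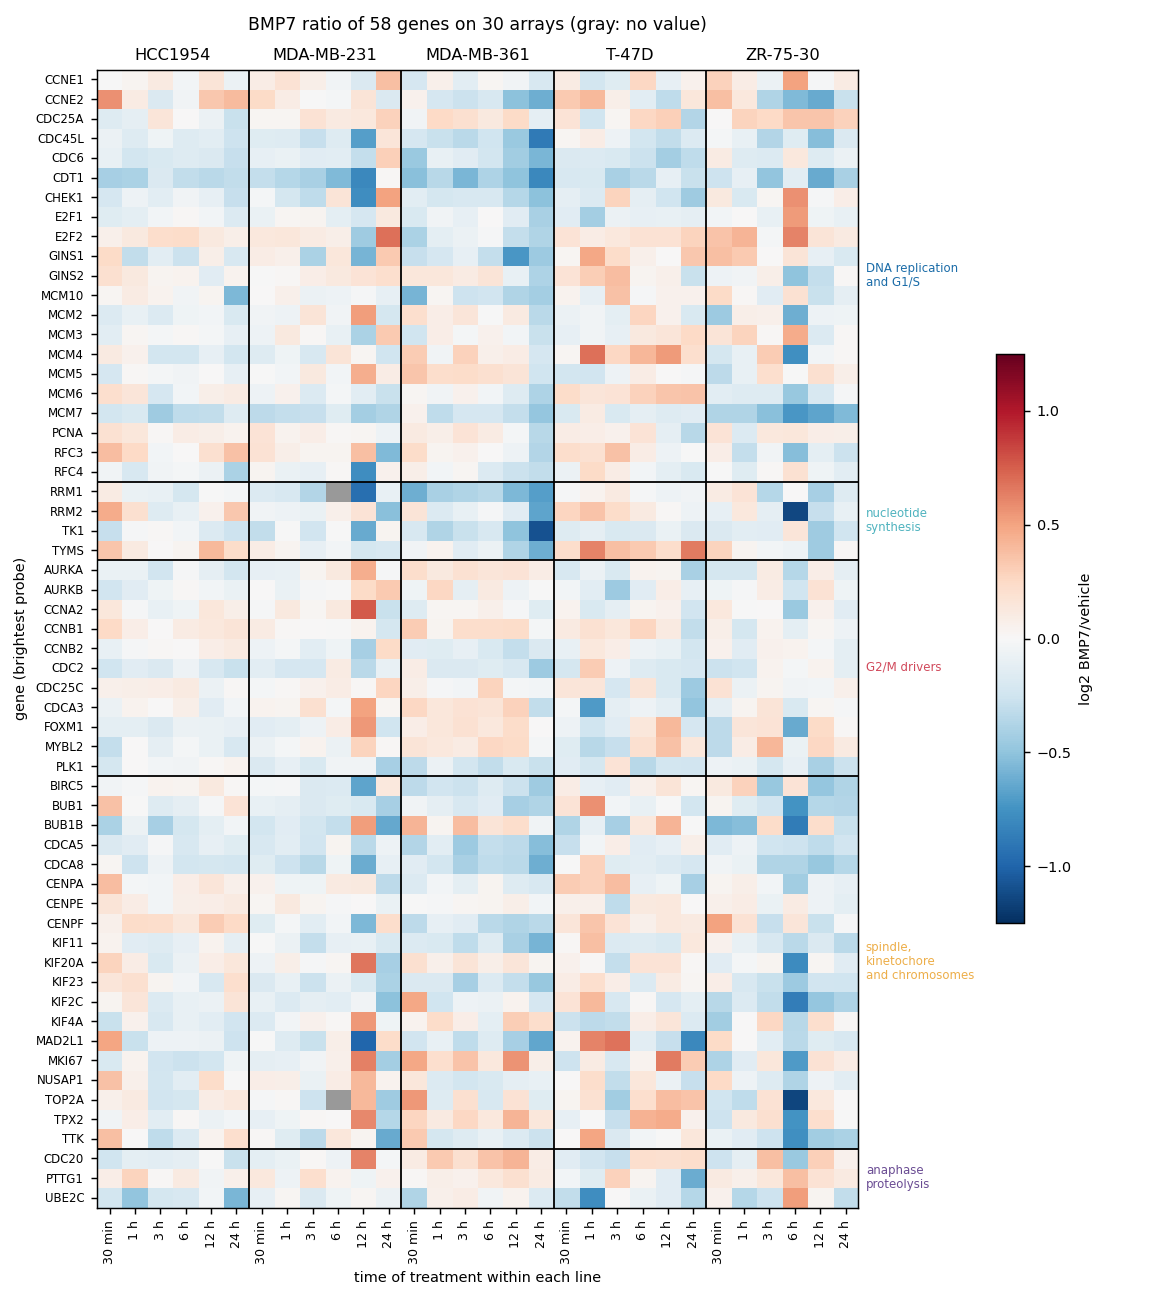
Log2 ratio of BMP7 over vehicle of each of the 58 proliferation genes (rows, grouped by role) on the 30 arrays (columns, grouped by cell line and ordered by time), in colour from lower to higher than vehicle. The column of MDA-MB-361 at 24 h is the one with the most genes below 0 (50 of 58), among them all 25 of DNA replication and G1/S and of nucleotide synthesis; gray marks a missing value.

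The ZR-75-30 array at 6 h, in the second scan batch, had another pattern. Its median ratio was -0.43 for the spindle, kinetochore and chromosome genes, with 16 of 19 below 0, and 0.13 for the replication and G1/S genes, with 10 of 21 below 0. TOP2A and RRM2 were followed by BUB1B (-0.88), KIF2C (-0.87) and KIF20A (-0.79), a checkpoint kinase and 2 kinesins of mitosis, and at the other end stood E2F2 (0.62), the checkpoint kinase gene CHEK1 (0.57) and E2F1 (0.53). The quartiles of the probes of like signal were as wide here as those of the list, 0.65 against 0.67 apart, and at 3 and 12 h the median of the list was back at -0.03 and -0.06. In MDA-MB-231 at 12 h the list was also wide, with quartiles 0.73 apart against 0.59 for the probes of like signal. There CCNA2 (0.77), KIF20A (0.67) and MKI67 (0.63) had the highest ratios and the spindle checkpoint gene MAD2L1 (-0.996), RRM1 (-0.94) and CDT1 (-0.80) the lowest, and the genes correlated negatively with their own ratios at 24 h (r = -0.44 across 58 genes, -0.37 across the probes of like signal).

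Over all time points, limma with 1 mean per cell line gave 0 members higher and 1 lower with BMP7, where 0.545% of all probes were called higher and 0.168% lower. The gene was CDT1, with a mean log2 ratio of -0.37 ± 0.06 (SE, n = 5 lines, adjusted p = 0.0265). Its ratios ran from -0.81 to -0.35 in MDA-MB-361, from -0.80 to 0.01 in MDA-MB-231, from -0.63 to -0.11 in ZR-75-30, from -0.42 to -0.18 in HCC1954 and from -0.40 to -0.10 in T-47D. It was thus below 0 on 29 of 30 arrays, the exception being MDA-MB-231 at 24 h, and was already between -0.52 and -0.20 at 30 min in the 5 lines. A fixed dye preference of the probe cannot be told apart from a change in such a mean, and the other probe of CDT1 had a mean of -0.12 (limma, adjusted p = 0.434). Without HCC1954, MDA-MB-231, MDA-MB-361 or ZR-75-30 in turn the limma adjusted p of CDT1 was 0.0852, 0.174, 0.0650 and 0.141, and with median scaling in place of lowess its mean was -0.08. In limma fits over the 30 single arrays in place of 5 line means, 1 member was higher and 17 lower with scan batch as a term (of all probes, 14.6% and 15.4%), and 0 were higher and 15 lower with slide as a random block (11.7% and 12.2%). In those fits the spread is that between arrays, of which 6 share a line. At an unadjusted limma p under 0.05 over the line means, 0 members were higher and 12 lower, against 7.79% and 8.09% of all probes. The next lowest member was MCM7, with a mean of -0.30, below 0 on 28 of 30 arrays. The median over the list was -0.03, and -0.00 over the probes of like signal, but with normexp and median scaling it turned to 0.18, where all probes were at 0.08.

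The difference between the late (12 and 24 h) and early (30 min and 1 h) ratios within each line, in which a fixed dye preference cancels, addresses the response over time. Scan batch does not cancel in HCC1954, MDA-MB-231 and ZR-75-30. By limma over the 5 lines, 0 members passed an adjusted p of 0.05 (0.00381% of all probes did), with the lowest adjusted p at 0.190. A limma fit over single arrays with slide as a random block called 0 members higher and 2 lower, against 1.62% and 0.564% of all probes. At an unadjusted limma p under 0.05, 2 members were higher and 14 lower, against 11.8% and 9.07% of all probes. MAD2L1 had the lowest difference, -0.42 ± 0.10 (SE, n = 5 lines). CCNE2 (cyclin E2), which drives entry into S phase, was at -0.36 ± 0.11, BUB1, a kinase of the spindle checkpoint, at -0.28 ± 0.08, and RRM2 at -0.24 ± 0.07. CDC20 was at 0.25 ± 0.09. By role the median difference was -0.20 for nucleotide synthesis with 4 of 4 genes below 0, -0.10 for replication and G1/S with 18 of 21, -0.14 for spindle, kinetochore and chromosomes with 13 of 19, and 0.01 for G2/M drivers with 5 of 11. The whole list had a median of -0.08, with 41 of 58 below 0, against -0.02 for the probes of like signal. The other cell cycle genes stood at -0.09, with 0 of 61 called, 1 higher and 14 lower at an unadjusted limma p under 0.05, and 0 of 10 further cell cycle regulators were called. These 10 were mixed in kind, with the inhibitor CDKN1A at 0.24 and MYC, which drives growth, at -0.40.

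Line by line, limma called 0 members in each of the 5 lines, where its calls among all probes came to 4.62% in T-47D, 1.74% in ZR-75-30, 0.00762% in MDA-MB-361, 0.0305% in MDA-MB-231 and 0% in HCC1954. At an unadjusted limma p under 0.05 it gave 8 members in T-47D (21.6% of all probes), 7 in ZR-75-30 (17.9%), 7 in MDA-MB-361 (1.92%), all lower, 1 in MDA-MB-231 (4.10%) and 0 in HCC1954 (1.1%). MDA-MB-361 had the lowest median difference, -0.17, with 51 of 58 genes below 0 and 21 of 21 replication genes among them, while the probes of like signal had a median of 0.00. The other cell cycle genes had -0.19 there, with 57 of 61 below 0, and 3 of them were called higher in T-47D. The medians of the list were -0.09 in ZR-75-30, -0.05 in MDA-MB-231 and -0.04 in each of T-47D and HCC1954. With normexp and median scaling they were -0.44, 0.04, -0.24 and -1.13 in the same order, where all probes were at -0.17, 0.01, -0.04 and -0.73, and that of MDA-MB-361 was -0.22. With the series matrix values the median in ZR-75-30 was 0.00. Whether the difference varied between lines was tested with 4 contrasts in 1 limma F test, which called 0 members (0% of all probes), 1 at an unadjusted p (6.54%). The spread in these line fits is that between neighbouring time points, not between replicates.

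The vehicle channel shows how active the same genes were without BMP7. Its level is the log2 signal minus the 75th percentile of the array, and levels are set side by side for 1 probe across lines, never between probes. The lines differed in this level. The median level of the 58 genes was 2.94 ± 0.26 in MDA-MB-231, 2.70 ± 0.10 in HCC1954, 2.54 ± 0.22 in T-47D, 2.38 ± 0.14 in ZR-75-30 and 1.82 ± 0.15 in MDA-MB-361 (SD, n = 6 time points each). The values of MDA-MB-361, 1.61 to 2.05, lay under all those of the other lines, 2.17 to 3.42, whereas each of the other neighbours in this order overlapped. The median of the probes of like signal was also lowest there, at a mean of 2.19 against 2.30 to 2.40 in the other lines. Minus that median, the list was between -0.60 and -0.14 in MDA-MB-361. It was at -0.26 in ZR-75-30 at 30 min, so on this scale the lines overlapped. MDA-MB-231 was the highest line for 31 of 58 genes, in 8 of them without overlap with the next line, and MDA-MB-361 the lowest for 32, in 12 of them without overlap. The same counts were not taken over all probes, so whether they are larger than for other genes was not tested.

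**Figure D3:**
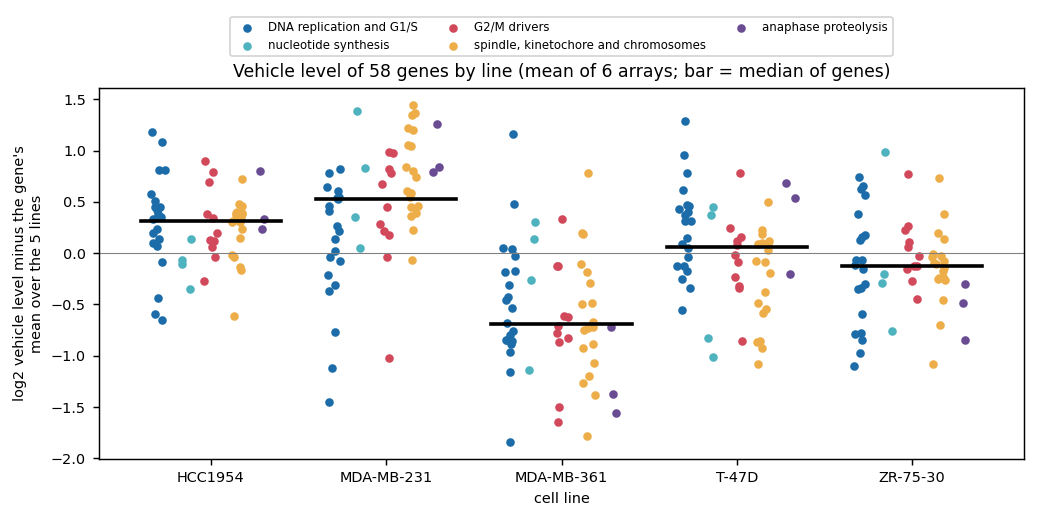
Vehicle level (log2, mean of 6 arrays) of each of the 58 proliferation genes in the 5 cell lines, minus the mean of that gene over the lines; colours give the role, and the bar is the median of the genes. Most points of MDA-MB-361, the lowest line for 32 of 58 genes, lie below 0, and most of MDA-MB-231, the highest for 31, lie above it.

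With limma, each line was set against the mean of the other 4, and the spread is that over time points of the same line. In MDA-MB-361, 4 members were higher and 39 lower, where 32.6% and 33.1% of all probes were, and the median difference was -0.87 on the log2 scale (-0.18 for the probes of like signal). The members that were lower came from all roles, with 13 of 21 replication, 8 of 11 G2/M, 14 of 19 spindle and 3 of 3 anaphase genes, but 1 of 4 in nucleotide synthesis. CDC6 was between -0.29 and 0.58 in MDA-MB-361 (median 0.31) and between 1.61 and 3.55 in the other lines, a difference of -2.30 ± 0.13 (SE, limma, adjusted p = 7.94e-12). TOP2A spanned 0.28 to 0.78 (median 0.56) against 1.40 to 3.82 elsewhere (-2.24 ± 0.22). AURKA, a kinase of the spindle poles, spanned 1.08 to 1.93 (median 1.48) against 2.48 to 4.51 (-2.05 ± 0.13). The ranges of these 3 genes do not overlap with any other line. CDC20 (-1.94) and CCNB1 (cyclin B1, -1.87) followed, and the 4 higher members were E2F2 (1.45), BIRC5 (survivin, 0.98), CDT1 (0.60) and FOXM1 (0.42), the last pair of which did not pass with slide as a random block. The second probes of E2F2 and CDT1 had the opposite sign in this line.

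In MDA-MB-231, 39 members were higher and 5 lower, where 32.8% and 31.1% of all probes were, with a median difference of 0.66 (0.16 for the probes of like signal). Of the spindle, kinetochore and chromosome genes 17 of 19 were higher, of the G2/M drivers 7 of 11, and of the replication and G1/S genes 9 of 21, with 4 lower. MKI67 lay between -0.40 and 0.88 (median 0.45), above the -2.56 to -0.55 of the other lines, a difference of 1.70 ± 0.18 (limma, adjusted p = 6.00e-08). TYMS, the thymidylate synthase, lay between 5.26 and 7.52 (median 5.48) and above the 3.08 to 4.87 of the other lines (1.73 ± 0.19). TTK (1.81), BUB1 (1.69) and CDC20 (1.57), which act in the spindle checkpoint and the exit from it, completed the 5 largest differences. The members that were lower were E2F2 (-1.81), GINS2 (-1.40), a part of the replicative helicase, MYBL2 (-1.28), a transcription factor of cell cycle genes, CDT1 (-0.97) and CCNE2 (-0.46). Without its 6 h array, 35 members were higher and 6 lower, and CCNE2 did not pass (limma, adjusted p = 0.115). The share of all probes called in that fit was not counted.

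HCC1954 had 25 members higher and 5 lower (26.5% and 30.7% of all probes), with 12 of 21 replication and G1/S genes among the higher ones. CCNE1 (cyclin E1) led, at 3.27 to 4.35 (median 4.09) against 1.45 to 3.62 in the other lines, a difference of 1.47 ± 0.18 (limma, adjusted p = 8.69e-07), and its lowest value overlapped with the highest of T-47D. CDC6 (1.35), AURKA (1.13), CDC25A (1.01), the phosphatase that activates G1/S kinases, and PCNA (1.01) followed. MCM2 (-0.81), MKI67 (-0.77) and GINS1 (-0.74) were lowest, and E2F1 (-0.55) and TK1 (-0.44) did not pass with slide as a random block (limma, adjusted p = 0.0691 and 0.221).

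T-47D had 17 members higher and 15 lower (36.3% and 28.4% of all probes), and the 2 directions differed by role. Of the replication and G1/S genes 11 of 21 were higher and 1 lower, while of the spindle, kinetochore and chromosome genes 1 of 19 was higher and 8 lower. CHEK1 lay between 2.70 and 3.17 (median 3.10), above the 0.27 to 2.55 of the other lines (1.61 ± 0.13, limma, adjusted p = 2.00e-09). E2F1 was at 2.64 to 3.72 (median 3.41, difference 1.20), and MYBL2 and RFC4, a clamp loader subunit, were both higher by 0.98. BUB1 (-1.35), RRM2 (-1.26), TTK (-1.15) and MKI67 (-1.08) were the lowest. ZR-75-30 had 10 members higher and 19 lower (31.5% and 25% of all probes). RRM2 lay at 3.20 to 4.07 (difference 1.24 ± 0.17), ahead of AURKA (0.96), MCM7 (0.93), KIF11 (0.92) and MCM6 (0.82). The second probe of KIF11 had the opposite sign (-0.22), and so had that of E2F2 (0.83, against -0.42 for its brightest probe). E2F1 was clear of all other lines at the low end, at 1.00 to 1.40 (median 1.26, -1.38 ± 0.13), and CENPF, a kinetochore protein, was at 2.88 to 3.71 (-1.35), just under the 3.72 at which the other lines began.

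These calls are sensitive to how slides are treated, since all slides but 1 held a single line. With slide as a random block, limma called 33 members higher and 4 lower in MDA-MB-231, 13 and 3 in HCC1954, 2 and 30 in MDA-MB-361, 8 and 10 in T-47D and 6 and 14 in ZR-75-30. The share of all probes called in these fits was not counted, so a drop particular to the members cannot be told from one common to all probes. The 30 min arrays of ZR-75-30 and MDA-MB-231 lay on 1 slide. The median level of the list there was 2.20 in ZR-75-30 and 2.85 in MDA-MB-231, and that of the probes of like signal 2.46 and 2.37. Of 30 called values of genes with a second probe, 6 had the opposite sign in that probe. PLK1 passed in none of the 5 lines, its means lying between 4.09 and 4.57.

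Over the day the medians of the vehicle level by role had different signs, which was not tested between roles. In HCC1954, MDA-MB-231 and ZR-75-30 the 30 min array was of another scan batch than the late arrays, so time and batch are mixed there. The replication and G1/S genes had a median late minus early difference of -0.22, with 20 of 21 below 0 and 7 of 21 lower at an unadjusted limma p under 0.05, the spindle, kinetochore and chromosome genes had 0.06, with 7 of 19 below 0, and the G2/M drivers 0.07. Of the whole list 0 members passed limma (0% of all probes), with 3 higher and 8 lower at an unadjusted limma p under 0.05, against 4.51% and 3.13% of all probes. E2F1 had the lowest difference, -0.47 ± 0.12, with CDC45L (-0.45), CDC6 (-0.37), MCM5 (-0.32), MCM7 (-0.31) and MCM2 (-0.28) close to it, and KIF20A (0.37), BUB1 (0.35) and the centromeric histone gene CENPA (0.32) were at the other end (SE, n = 5 lines, limma, lowest adjusted p = 0.621). In single lines limma called 0 members, where its calls among all probes came to 0.0457% in MDA-MB-231, 0.0114% in each of T-47D and ZR-75-30, 0.00762% in MDA-MB-361 and 0% in HCC1954. At an unadjusted limma p under 0.05 it gave 10 members in MDA-MB-231 (11.1% of all probes), 8 in T-47D (8.41%), 1 in MDA-MB-361 (1.37%) and 0 in both ZR-75-30 (5.23%) and HCC1954 (3.38%). The median differences were -0.13, -0.12, -0.21, 0.01 and 0.11 in the same order. The limma F test between lines called 0 members (0.0114% of all probes) and 2 at an unadjusted p (4.19%).

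**Figure D4:**
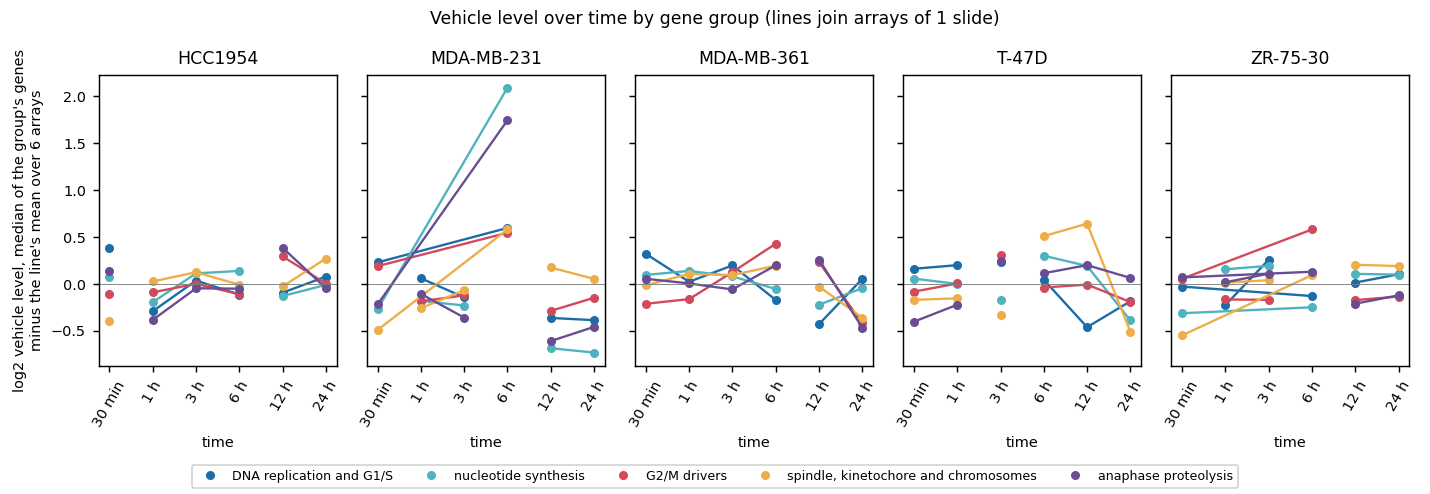
Median vehicle level (log2) of the proliferation genes of each role at the 6 time points, minus the mean of the line over its 6 arrays, by cell line; colours give the role and lines join arrays of 1 slide. The highest points are nucleotide synthesis and anaphase proteolysis on the MDA-MB-231 array at 6 h, and in T-47D the replication genes are lowest at 12 h and the spindle genes at 24 h. RRM1 has no value on that MDA-MB-231 array, so its nucleotide synthesis point is the level of TYMS alone.

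Arrays of the same slide can be compared without the slide in between. Such pairs are single arrays without a test, and those described here were chosen after their values had been seen. In the vehicle cells of T-47D from 6 to 12 h, 21 of 21 replication and G1/S genes were lower, with a median of -0.53, while 9 of 11 G2/M drivers (median 0.24) and 13 of 19 spindle, kinetochore and chromosome genes (median 0.13) were higher, and the probes of like signal moved by 0.05. CCNE2 (-0.97), CCNE1 (-0.92) and E2F1 (-0.91) had the lowest differences, and PTTG1 (0.66), the securin that guards sister chromatids, and CCNB1 (0.60) the highest. From 12 to 24 h the spindle and G2/M groups had the opposite sign, while the replication and G1/S genes were mixed, with CCNE2 lower again (-0.70). All 19 spindle, kinetochore and chromosome genes were lower (median -1.02), as did 10 of 11 G2/M drivers (-0.77), against -0.08 for the probes of like signal, and 12 of 21 replication and G1/S genes were higher (0.15). MAD2L1 (-2.09), CDC2 (the mitotic kinase CDK1, -1.85), TTK (-1.56) and TOP2A (-1.50) had the lowest differences and CCNE1 (1.16) and MCM5 (0.80) the highest. In the BMP7-treated cells of T-47D the median difference was -0.57 from 6 to 12 h for the replication genes, with 21 of 21 lower, and -1.14 from 12 to 24 h for the spindle genes, with 19 of 19 lower.

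In the vehicle cells of MDA-MB-361 from 12 to 24 h, 21 of 21 replication and G1/S genes were higher (median 0.50) and all 4 of nucleotide synthesis (0.23), whereas 18 of 19 spindle, kinetochore and chromosome genes (-0.47), 10 of 11 G2/M drivers (-0.47) and 3 of 3 anaphase genes (-0.70) were lower, with the probes of like signal at -0.02. MCM5 (1.19), MCM4 (0.74), MCM6 (0.70) and MCM2 (0.70) had the highest differences, and PLK1 (-0.93), CENPF (-0.86) and KIF20A (-0.85) the lowest. In the BMP7-treated cells of these arrays, 18 of 21 replication genes were also higher at 24 h, with a median of 0.33, and 19 of 19 spindle genes were lower, with a median of -0.65. The ratio of BMP7 over vehicle was lower at 24 h than at 12 h in 52 of 58 genes, with a median of -0.21 against -0.00 for the probes of like signal, and the vehicle signal enters both the level and the ratio. Earlier, from 3 to 6 h, the vehicle cells of MDA-MB-361 had the opposite signs, with 19 of 21 replication genes lower (-0.22) and 17 of 19 spindle genes higher (0.24), and in the treated cells 18 of 21 were lower (-0.25) and 15 of 19 higher (0.20). The promoters of CDC6, E2F1 and PCNA shown above belong to genes whose vehicle level differed by 0.68, 0.45 and 0.54 in this line from 12 to 24 h, and those of MKI67, CDC20 and PLK1 to genes with differences of -0.25, -0.67 and -0.93. In T-47D from 6 to 12 h the split was less clean. There CDC6, E2F1 and PCNA differed by -0.56, -0.91 and -0.09, and MKI67, CDC20 and PLK1 by -0.22, 0.09 and 0.03.

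**Figure D5:**
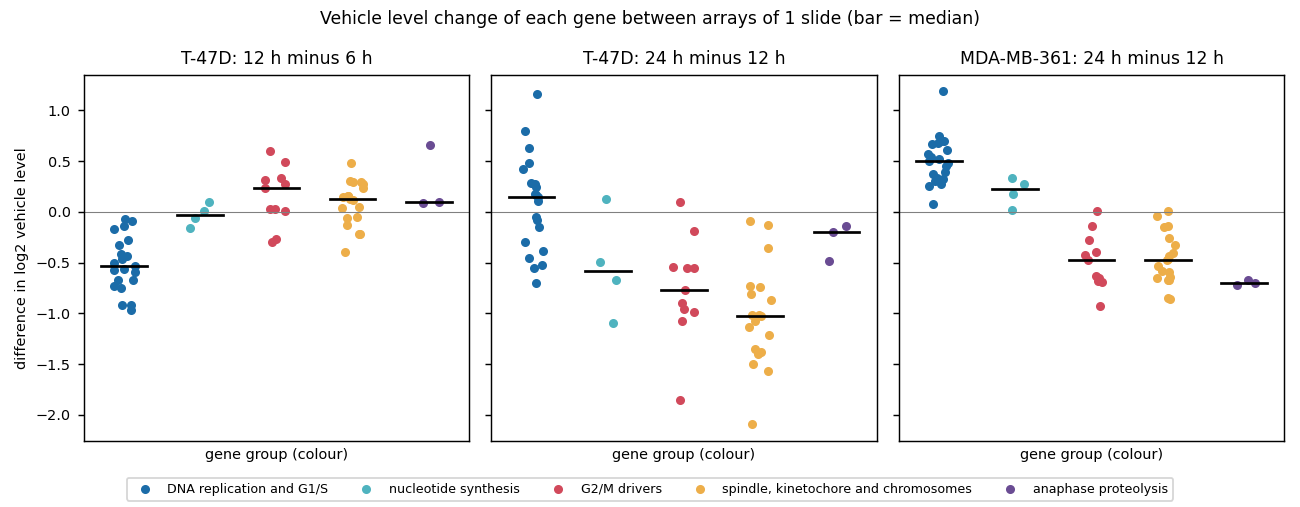
Change of the vehicle level (log2) of each proliferation gene between arrays of 1 slide, by role, in T-47D from 6 to 12 h and from 12 to 24 h and in MDA-MB-361 from 12 to 24 h. Bars are medians over the genes of a role, and in each panel those of the replication and of the spindle genes lie on different sides of 0, at -0.53 and 0.13, 0.15 and -1.02, and 0.50 and -0.47.

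The probes most like the list in the vehicle channel were found by correlating, over the 30 arrays and with each line centred on its own mean, every other detected probe with the median of the members. PBK, a mitotic kinase, was the closest (r = 0.82), before ORC6L, a subunit of the origin recognition complex (0.81), a probe without a gene name, A_24_P230416 (0.80), ZNF26 (0.80) and NDC80, a kinetochore protein (0.79). The members themselves, which make up the median, had a median r of 0.50 and ranged from 0.07 for CDT1 to 0.80 for CDCA8, and all detected probes had a median of 0.02. The 30 points share 5 lines, and the MDA-MB-231 array at 6 h is among them.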

How the data were processed

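Per the file headers, 30 two-colour arrays were read with Feature Extraction 9.5.1.1, and the deposited log10 ratio of Cy5 over Cy3 was background-subtracted and dye-normalized by lowess. The authors' intensity values (processed signals) were deposited beside it, with flags (other values) for background, saturation and outliers, and the authors' deposited log2 values in the series matrix served as an alternative. Ratios were turned to log2 and centred on the median of each array, and the vehicle level was log2 intensity minus the 75th percentile. Outlier spots were left out and spots of a probe averaged. Differences were tested with limma 3.58.1 (R 4.3.3) and Benjamini-Hochberg adjustment over 26256 probes, with 0.05 as threshold; late against early and mean ratios used 1 value per line. There were no replicates, so p-values measure the spread between time points or lines, not between cultures, and the number of arrays limits the precision. Groups came from the labels.

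Named genes were 20 members fixed by symbol, plus, per comparison, the 5 with the largest estimates in each direction among those called; other genes named for single arrays or pairs of arrays were chosen after their values were seen. Members and lists were chosen with earlier results of these data known. Alternatives were normexp (offset 50), other scalings, no dim filter, scan batch or slide in the fit, and leaving out lines or arrays. The first scan batch alone, 24 h alone as late and leaving out the MDA-MB-231 array at 6 h were added after seeing the data. The fits were tested on simulated data.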

Additional observations from a re-analysis of the deposited data

Results flagged for a closer look

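In each group of 6 arrays of a line, the highest and lowest array were compared with their nearest neighbour, and 33 of 258 groups (12.8%) held an array that was farther from its neighbour than Dixon's critical value for 6 values allows, where chance gives about 1 in 20. No explanation was weighed for them.

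The MDA-MB-231 array at 6 h, which had 2741 outlier spots, stood apart in vehicle level for the medians of nucleotide synthesis (7.52) and anaphase proteolysis (7.25) and for CCNA2 (2.44), CCNB1 (6.56), CDC2 (5.10), PLK1 (6.65), PCNA (6.37) and TYMS (7.52), all above the other arrays of the line. RRM1 has no value on that array, so its nucleotide synthesis median is the TYMS value itself. On the other arrays of the line that median includes RRM1, so the gap is partly one of genes counted. Other vehicle levels that stood apart were the G2/M drivers in HCC1954 at 12 h (2.44) and in ZR-75-30 at 6 h (1.94), the spindle, kinetochore and chromosome genes in ZR-75-30 at 30 min (1.37), CCNE2 in HCC1954 at 12 h (-1.26), BIRC5 in MDA-MB-361 at 24 h (5.60), TYMS in MDA-MB-361 at 12 h (4.39), FOXM1 in ZR-75-30 at 6 h (1.69) and CENPE in ZR-75-30 at 30 min (0.31).

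Among log2 ratios of BMP7 over vehicle, the ZR-75-30 array at 6 h stood apart for TOP2A (-1.14), RRM2 (-1.13) and E2F1 (0.53). In MDA-MB-231 the G2/M drivers (0.24) and CDC20 (0.62) stood apart at 12 h, and CCNB1 (-0.22), CDC6 (0.30), RRM2 (-0.53) and BUB1 (-0.41) at 24 h. In T-47D these were CDC2 (0.32) and E2F1 (-0.42) at 1 h, CENPE (-0.31) at 3 h and CCNB1 (-0.31) at 24 h. The others were the replication and G1/S genes in HCC1954 at 24 h (-0.17), PLK1 in HCC1954 at 30 min (-0.22), PCNA in MDA-MB-361 at 24 h (-0.35) and PCNA in ZR-75-30 at 1 h (-0.17).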

How the results depend on the processing

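No named gene that had been called changed sign under an alternative, and counts and medians were not judged for sign. With normexp and median scaling the median of the list turned from below 0 to 0.18 for the mean ratio. For late against early ratios in MDA-MB-231 it turned from below 0 to 0.04. Of the alternatives for counts of members called, 156 were within 1.5 times the count given and 14 were not, and of those for single named values 497 kept direction and side of the threshold, 27 lost the call and 3, all medians of the list on single arrays, moved by more than their spread. Of those for medians of the list, 145 stayed within the spread and 9 did not. For the mean ratio, where 1 member was called, leaving out a line gave 0 to 1, no filter on dim probes gave 0, normexp with median scaling 4 (4 higher), scan batch as a term 18 and slide as a random block 15, both fitted over single arrays. Slide as a random block also gave 2 members, both lower, for late against early ratios, and 16 and 18 for the vehicle levels of HCC1954 and T-47D, where 30 and 32 had been called. For late against early in single lines, scan batch as a term gave 1 in T-47D, leaving out the 6 h array gave 1 in ZR-75-30, and taking 30 min to 6 h as early gave 1 for the vehicle level of MDA-MB-231. With normexp and median scaling the median of the list for late against early ratios was -0.42, where all probes were at -0.16, and it was -1.13 in HCC1954 (all probes -0.73), 0.04 in MDA-MB-231, -0.24 in T-47D, -0.44 in ZR-75-30 and 0.18 for the mean ratio. On single arrays it was then -0.00 in MDA-MB-361 at 12 h, -0.26 in T-47D at 24 h and -0.32 in ZR-75-30 at 6 h. In ZR-75-30 it was -0.03 with 30 min to 6 h as early and 0.00 with the series matrix, and in the vehicle cells of MDA-MB-231 -0.47 with 30 min to 6 h as early. The cause was not tested. No replicate block was fitted, since the labels carry no replicate numbers, and late against early was taken within each line. TOP2A and RRM1 have no value on the MDA-MB-231 array at 6 h. The number of arrays, 1 for each line and time point, limits the precision.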

Other observations

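The 61 detected cell cycle genes outside the list had a vehicle level that was higher in MDA-MB-231 than in the other lines for 38 genes and lower for 8, and in MDA-MB-361 higher for 6 and lower for 41 (limma, adjusted p under the threshold of 0.05). Of all probes, 32.8% were higher and 31.1% lower in MDA-MB-231, and 32.6% and 33.1% in MDA-MB-361. From early to late, 10 further cell cycle regulators, inhibitors such as CDKN1A and CDKN1B together with CCND1 and MYC, which promote proliferation, had a median vehicle difference of 0.13, with 1 of 10 below 0. Limma called 0 of these 10 genes (0% of all probes), with 2 higher at an unadjusted p under 0.05, against 4.51% of all probes.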
